A study of Mus musculus with 9 samples.

Results

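The genes of Wnt ligands, Wnt receptors and secreted Wnt antagonists were followed across 3 layers of the mouse eye, the choroid (CH), the retinal pigment epithelium (RPE) and the photoreceptors (PR). They are all genes on the array whose symbol is Wnt, Fzd, Sfrp, Dkk or Rspo with a number, plus Frzb, Wif1, Lrp5, Lrp6 and Ror2, which gave 46 of the 31829 genes and 53 of the 39429 probes. By role they are 19 Wnt ligands, 10 Frizzled receptors, 3 co-receptors (Lrp5, Lrp6 and Ror2), 6 antagonists that bind Wnt proteins (Sfrp1, Sfrp2, Sfrp4, Sfrp5, Frzb and Wif1), 4 Dickkopf proteins and 4 R-spondins. Each layer was cut by laser from frozen sections of eyes of healthy C57BL/6 mice (substrain C57BL/6JOlaHsd in the paper's methods), which the labels give as female and 6 months old (the methods state a slightly younger age), with 1 whole eye per sample and 3 samples per layer. Nothing was treated and no gene was altered. The RNA of each sample was amplified and labelled with Cy5, and every array also carried the same Cy3-labelled reference of mouse RPE and choroid RNA. The unit throughout is log2(Cy5/Cy3), at 0 where a layer and the reference gave the same signal, and it orders the layers for 1 gene but not the genes within a layer.

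Wnt proteins are secreted lipid-modified ligands that bind Frizzled receptors, and with the co-receptors Lrp5 or Lrp6 they stabilise beta-catenin, which then acts on genes together with TCF/LEF factors. Secreted frizzled-related proteins (Sfrp genes and Frzb) and Wif1 bind the ligands themselves, Dickkopf proteins such as Dkk1 and Dkk2 bind Lrp5 and Lrp6, and R-spondins raise the amount of receptor at the cell surface. In the eye the pathway is known for its part in the development of the RPE and of the retinal vessels, the latter through Fzd4, Lrp5 and Tspan12.

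Fzd1 and Dkk2 were highest in CH, intermediate in RPE and lowest in PR, with a fold change (FC) of CH over PR of 85.6 for Fzd1 and 59.1 for Dkk2. Sfrp5 and Sfrp1 were lowest in PR as well, with a log2 FC of RPE over PR of 4.64 and 4.03, but had their highest means in RPE. Sfrp2 and Sfrp4 stood higher in CH than in both other layers, with an FC of CH over RPE of 3.26 and 3.47. Fzd10 ran the other way, with an FC of PR over RPE of 7.68.

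The promoters of 6 genes that stand for these patterns are given as 300 bases each around the annotated start, 5′ to 3′ on the gene's own strand, from RefSeq on GRCm38.p6. Dkk2, Fzd1 and Sfrp2 had their highest values in CH, Sfrp5 and Fzd4 in RPE, and Fzd10 in PR. Capitals mark matches to CTTTGA, the core of TCF/LEF sites, or to TAATCC, a core bound by OTX2 and CRX, on either strand, and the matches do not overlap each other.
Dkk2 promoter, chr3:132085042-132085341, plus strand: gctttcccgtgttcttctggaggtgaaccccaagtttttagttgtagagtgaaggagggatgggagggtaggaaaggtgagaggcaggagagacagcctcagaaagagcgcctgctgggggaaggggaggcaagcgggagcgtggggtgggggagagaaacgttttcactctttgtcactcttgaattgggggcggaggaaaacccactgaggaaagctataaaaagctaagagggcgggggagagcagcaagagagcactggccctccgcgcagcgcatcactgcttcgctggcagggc
Fzd1 promoter, chr5:4758167-4758466, minus strand: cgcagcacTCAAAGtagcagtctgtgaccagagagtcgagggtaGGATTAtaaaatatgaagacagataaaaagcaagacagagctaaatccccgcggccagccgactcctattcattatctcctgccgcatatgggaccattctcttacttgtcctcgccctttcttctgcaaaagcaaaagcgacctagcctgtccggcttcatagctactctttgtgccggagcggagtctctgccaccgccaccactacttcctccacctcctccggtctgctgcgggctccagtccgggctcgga
Sfrp2 promoter, chr3:83766071-83766370, plus strand: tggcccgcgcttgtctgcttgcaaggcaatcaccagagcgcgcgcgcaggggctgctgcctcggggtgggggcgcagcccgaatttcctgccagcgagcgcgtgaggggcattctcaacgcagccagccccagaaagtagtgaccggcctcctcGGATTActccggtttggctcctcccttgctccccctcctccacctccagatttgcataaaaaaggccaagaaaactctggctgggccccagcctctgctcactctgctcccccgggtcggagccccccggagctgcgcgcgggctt
Sfrp5 promoter, chr19:42202203-42202502, minus strand: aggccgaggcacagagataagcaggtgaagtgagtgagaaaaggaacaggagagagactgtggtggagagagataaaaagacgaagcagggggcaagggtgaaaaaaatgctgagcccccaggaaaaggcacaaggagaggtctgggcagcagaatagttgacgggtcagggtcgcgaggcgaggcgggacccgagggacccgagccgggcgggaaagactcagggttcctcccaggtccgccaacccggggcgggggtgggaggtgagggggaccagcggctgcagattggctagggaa
Fzd4 promoter, chr7:89404116-89404415, plus strand: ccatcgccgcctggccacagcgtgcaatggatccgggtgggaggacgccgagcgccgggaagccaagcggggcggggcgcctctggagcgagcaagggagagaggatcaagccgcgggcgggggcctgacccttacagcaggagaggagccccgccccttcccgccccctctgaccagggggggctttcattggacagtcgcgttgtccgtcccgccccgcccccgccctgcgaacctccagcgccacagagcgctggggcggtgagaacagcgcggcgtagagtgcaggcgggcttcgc
Fzd10 promoter, chr5:128600856-128601155, plus strand: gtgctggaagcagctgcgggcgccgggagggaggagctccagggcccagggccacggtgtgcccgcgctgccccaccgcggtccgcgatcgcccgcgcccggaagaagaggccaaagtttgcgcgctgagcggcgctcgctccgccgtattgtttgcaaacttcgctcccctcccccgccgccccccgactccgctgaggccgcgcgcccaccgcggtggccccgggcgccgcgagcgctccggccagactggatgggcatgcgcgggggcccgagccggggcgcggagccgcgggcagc
Fzd1 held 1 match to each of the 2 motifs and Sfrp2 held 1 match to TAATCC, all on the opposite strand to the gene. The other 4 held neither in this window. CTTTGA was found in 5 of the 33 promoters available for 30 of the genes (15.2%) against 16% of all 32851 promoters, TAATCC in 3 (9.09%) against 7.06%, and the E-box CACGTG in 4 (12.1%) against 7.15%. These promoters were rich in G and C, with a median of 69.0% against 52.7% over all promoters. Among the 6 printed, the content ran from 54.0% in Fzd1 and 57.7% in Dkk2 through 61.3% in Sfrp5, 66.0% in Sfrp2 and 72.7% in Fzd4 to 77.7% in Fzd10, which also held the most CpG pairs (45, against 11 in Dkk2).

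Layer means were estimated from all 9 arrays together with limma, with Benjamini-Hochberg (B-H) adjustment across the probes of the whole array. To be called, a gene needed an FC above 2.5 together with an adjusted p-value under 0.01 at 1 or more of its probes. Values are those of the gene's brightest probe, adjusted p-values are from limma, and intervals are 95% intervals of single genes. Each sample was a separate eye, but nothing in the labels says whether the 3 eyes of a layer came from 3 mice. The p-values measure the spread between these eyes, technical spread included, and some eyes may share a mouse. Median Cy5 signals ran from 1111 to 1139 in CH, 991 to 1534 in RPE and 617 to 963 in PR, and RPE replicate 2 had 91.7% of its probes well above background where the other 8 arrays had 62.1% to 71.3%. No probe of the 46 genes was saturated, and none was dropped from an array. In layers of tissue, fewer cells of a type and less RNA per cell cannot be told apart.

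The brightest probe was well above background on all 3 arrays of a layer for 35 of the 46 genes in CH, 30 in RPE and 31 in PR, and for 37 in at least 1 layer. Over all genes the shares were 62.4%, 61.6%, 63.1% and 68.4%. Wnt2b, Wnt3, Wnt3a, Wnt8a and Dkk1 were not well above background on any array.

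Between RPE and CH, 7 of the 46 genes (15.2%) were higher in CH, against 1.81% of all genes. They were Wnt5a, Fzd1, Sfrp2, Sfrp4, Dkk2, Dkk3 and Rspo3. None was higher in RPE at both thresholds in the limma fit, a direction in which 0.217% of all genes were called. At an unadjusted p of 0.05, 6 were higher in RPE (Fzd4, Fzd6, Fzd8, Sfrp1, Sfrp5 and, at its dimmer probe, Wnt16) and 15 in CH, and with no demand on the FC, 2 (Fzd4 and Sfrp1) and 13 passed the adjusted p-value. Between RPE and PR, 16 genes (34.8%) were higher in RPE against 11.3% of all genes, and 1 was higher in PR against 5.66%. Between CH and PR, 21 (45.7%) were higher in CH against 13.2%, and 1 was higher in PR against 6.84%. The 3 comparisons share arrays, and the median log2 FC over the 46 genes was -0.0083 for RPE over CH, 0.51 for RPE over PR and 0.98 for CH over PR, where the medians over all genes were 0.03, -0.0045 and -0.05. In all, 22 genes (47.8%) were called in at least 1 comparison against 22.4% of all genes. Of these 22, 13 had their highest mean in CH, 8 in RPE and 1 in PR, and 21 had their lowest mean in PR. Over all genes, calls lower in PR (11.3% and 13.2%) also outnumbered calls higher in PR (5.66% and 6.84%). Of the 8 with the highest mean in RPE, only Fzd4 and Sfrp1 passed the adjusted p-value over CH, and neither passed the FC.

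**Figure D1:**
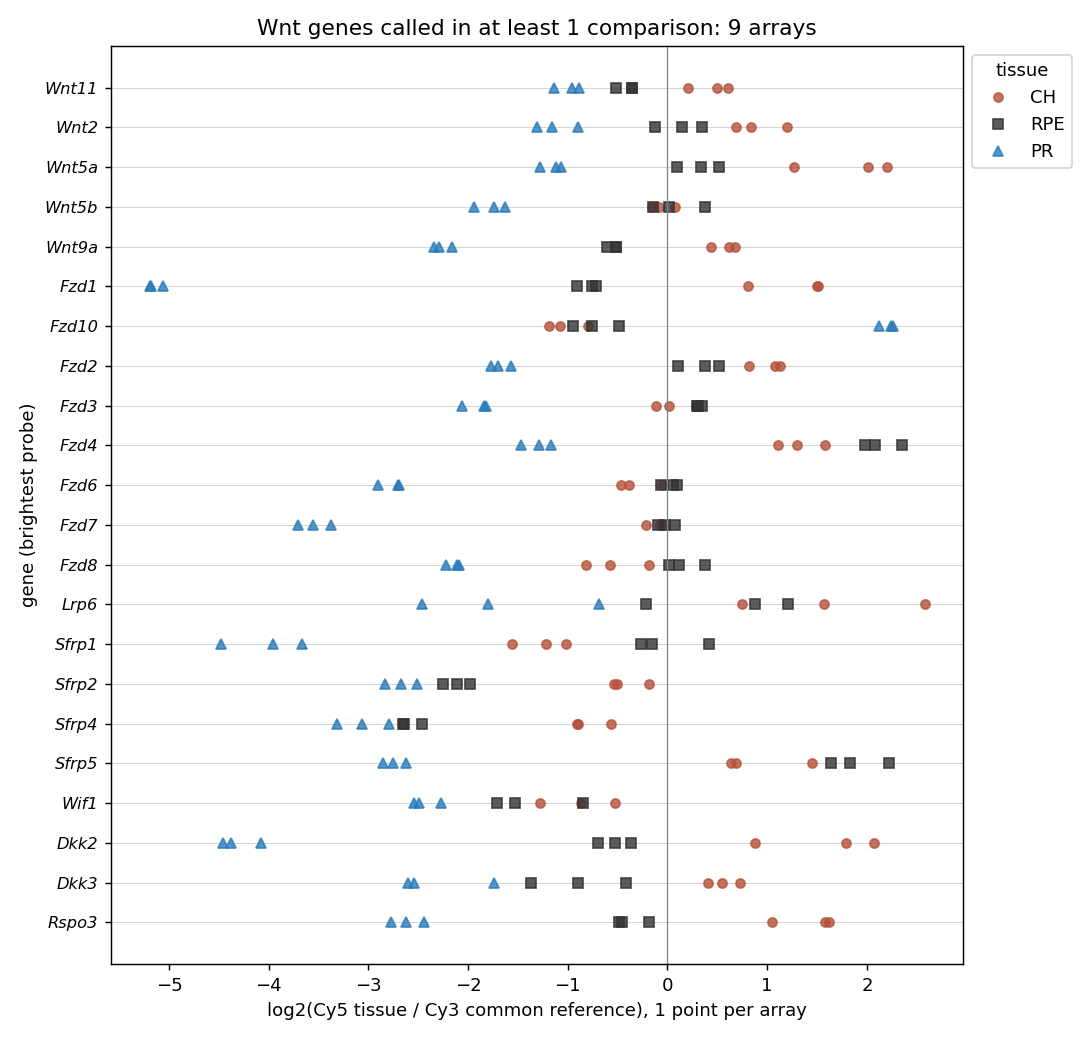
The 22 genes called in at least 1 comparison, as log2(Cy5 tissue / Cy3 common reference) on the x axis with 1 point per array for CH (circles), RPE (squares) and PR (triangles). The PR points lie left of the RPE and CH means for every gene except Fzd10, where the 3 PR arrays sit between 2.12 and 2.26.

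Among the ligands, 5 of 19 (26.3%) were called in at least 1 comparison, near the 22.4% over all genes, and all 5 had their lowest mean in PR. Wnt5a, a ligand best known for signalling without beta-catenin, had log2 ratios of 2.01, 2.20 and 1.27 in CH, 0.51, 0.34 and 0.10 in RPE and -1.07, -1.28 and -1.12 in PR. The 3 layers did not overlap and stepped down from CH to PR. The log2 FC was -1.51 ± 0.22 (SE) for RPE over CH (adjusted p = 0.00136) and 1.47 ± 0.22 for RPE over PR (adjusted p = 0.000282). Without CH replicate 2 the former was -1.32, just under the required FC, and in the authors' table of the Cy5 channel alone neither passed the adjusted p-value (-1.28, adjusted p = 0.11, and 1.60, adjusted p = 0.0246). Wnt9a gave 0.44, 0.62 and 0.68 in CH, -0.51, -0.61 and -0.52 in RPE and -2.30, -2.34 and -2.16 in PR. It showed the same order with a narrow spread, and its FC of 2.18 of CH over RPE (adjusted p = 0.000141) lay below 2.5 while its FC of 3.29 of RPE over PR was called (adjusted p = 3.54e-07). Wnt11, another ligand linked to cell polarity, gave 0.50, 0.61 and 0.20 in CH, -0.52, -0.36 and -0.36 in RPE and -0.95, -1.14 and -0.88 in PR. The layers again did not overlap, and only the CH over PR difference, at a log2 FC of 1.43 ± 0.12, was called (adjusted p = 5.35e-06).

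Wnt5b, a close relative of Wnt5a, did not separate CH from RPE. Its log2 ratios were 0.08, -0.09 and -0.15 in CH, -0.14, 0.01 and 0.38 in RPE and -1.94, -1.63 and -1.74 in PR. The CH and RPE arrays overlapped (log2 FC of RPE over CH 0.14, interval -0.19 to 0.47, and -0.15 with median centring), and both lay above PR by 1.86 and 1.72 on the log2 scale (adjusted p = 3.22e-06 for RPE and 4.55e-06 for CH). Wnt2 read 0.84, 1.20 and 0.69 in CH, 0.34, 0.15 and -0.13 in RPE and -1.16, -0.90 and -1.31 in PR, where it was not well above background on any array. Set against that background, Wnt2 was at least 2.21-fold higher in CH than in PR (adjusted p = 4.34e-06). In RPE it was well above background on 1 of 3 arrays, and RPE over PR, at least 1.21-fold, was not called. Its measured difference passed the required FC without RPE replicate 3 (log2 FC 1.37) or PR replicate 2 (1.35), which the bound does not reach.

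Wnt9b fell just outside the thresholds in the opposite direction, and is given for that although it was not called. It read 1.47, 1.15 and 1.51 in PR, against 0.28, 0.36 and 0.43 in CH and 0.07, -0.08 and 0.21 in RPE. Every PR array was above every CH and RPE array, with an FC of PR over RPE of 2.48 (adjusted p = 1.05e-05) and of PR over CH of 2.03 (adjusted p = 5.26e-05). The FC over RPE passed without RPE replicate 3 (log2 difference of RPE and PR -1.38) or PR replicate 2 (-1.43). In CH and RPE 2 of the 3 arrays of Wnt9b were well above background. The other 13 ligands were not called in any comparison.

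Of the 10 Frizzled receptors, 8 (80.0%) were called in at least 1 comparison, against 22.4% of all genes. Of these 8, 7 were higher in both CH and RPE than in PR. Fzd1 (probe at chr5:4754003-4754062 on mm9, minus strand) had log2 ratios of 1.5, 1.51 and 0.81 in CH, -0.72, -0.75 and -0.90 in RPE and -5.19, -5.06 and -5.18 in PR. The gaps between layers were many times the spread within them. The log2 FC was -2.06 ± 0.17 for RPE over CH (adjusted p = 0.000129), 4.36 ± 0.17 for RPE over PR (adjusted p = 4.05e-08) and 6.42 ± 0.17 for CH over PR (adjusted p = 3.85e-09). Fzd2 stepped down in the same order, with 1.13, 1.08 and 0.82 in CH, 0.38, 0.52 and 0.11 in RPE and -1.70, -1.57 and -1.77 in PR. Its CH over RPE difference reached an FC of 1.59 (adjusted p = 0.00566, not called), and its second probe was also called over PR, where that probe was at background, at least 3.38-fold higher in CH and at least 1.46-fold in RPE.

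Fzd4, the receptor for norrin in vessel growth, and Fzd8 had their highest values in RPE. Fzd4 (chr7:96557478-96557537 on mm9, plus strand) read 1.11, 1.30 and 1.58 in CH, 2.08, 2.35 and 1.99 in RPE and -1.29, -1.47 and -1.17 in PR. All 3 RPE arrays lay above all CH arrays, with an FC of 1.75 (adjusted p = 0.00403) that stayed below 2.5, while RPE over PR reached 10.9 (adjusted p = 5.88e-08). Fzd8 read -0.18, -0.82 and -0.57 in CH, 0.12, 0.01 and 0.38 in RPE and -2.09, -2.11 and -2.22 in PR. It showed the same order with an FC of RPE over CH of 1.62 (adjusted p = 0.0126, not called), and within the slide that held CH, RPE and PR replicate 2 its CH over PR difference was 1.29 on the log2 scale, under the required FC, against 1.61 over all arrays.

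Fzd3, Fzd6 and Fzd7 differed little between CH and RPE and were much lower in PR. Fzd7 read -0.05, -0.07 and -0.22 in CH, 0.07, -0.09 and -0.02 in RPE and -3.38, -3.55 and -3.71 in PR. The log2 FC of RPE over CH was 0.10 with an interval of -0.14 to 0.34 (-0.17 with median centring), and that over PR was 3.53 ± 0.11 (adjusted p = 1.1e-08). A second probe of Fzd7 gave 1.17 for RPE over PR, below the required FC, and 1.53 for CH over PR (adjusted p = 0.000142). Fzd6 was between -0.46 and -0.06 in CH, -0.06 and 0.10 in RPE and -2.91 and -2.69 in PR, with a log2 FC of RPE over PR of 2.80 (adjusted p = 6.97e-08). Fzd3 was between -0.11 and 0.28 in CH, 0.29 and 0.34 in RPE and -2.06 and -1.82 in PR, with a log2 FC of RPE over PR of 2.22 (adjusted p = 2.34e-07). Their intervals for RPE over CH were 0.05 to 0.61 for Fzd6 and -0.01 to 0.52 for Fzd3.

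Fzd10 was the only gene called higher in PR. It read 2.12, 2.25 and 2.26 in PR, -1.19, -1.08 and -0.80 in CH and -0.48, -0.76 and -0.95 in RPE (chr5:129109798-129109857 on mm9, plus strand). The PR arrays stood apart from both other layers, which overlapped each other. The log2 FC was -2.94 ± 0.14 for RPE over PR (adjusted p = 1.23e-07) and -3.23 ± 0.14 for CH over PR (adjusted p = 4.68e-08). Fzd5 and Fzd9 were not called.

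The co-receptors separated the layers less clearly. Lrp6, which pairs with Frizzled receptors in the beta-catenin branch, read 1.57, 2.58 and 0.74 in CH, 0.88, 1.21 and -0.22 in RPE and -2.46, -0.69 and -1.80 in PR. CH and RPE overlapped, PR lay below both, and the replicates were spread more widely than those of any receptor called here. RPE over PR was called at a log2 FC of 2.28 ± 0.56 (adjusted p = 0.00684) and CH over PR at 3.28 ± 0.56 (adjusted p = 0.000648). The RPE call was lost without CH replicate 1 (adjusted p = 0.0119), RPE replicate 1 (0.0265) or 2 (0.0321), or PR replicate 1 (0.0293) or 3 (0.0251), and with slide as a block (log2 FC 2.08, adjusted p = 0.0157). A second probe of Lrp6 gave only 0.64 for RPE over PR and 0.77 for CH over PR, and was not called. Lrp5 read 0.38, 0.83 and 0.20 in CH, 0.65, 1.02 and 0.58 in RPE and 0.01, 0.15 and 0.05 in PR, and Ror2, a receptor of Wnt5a, read -1.36, -1.45 and -1.08, then -1.15, -1.66 and -1.90, then -2.30, -2.09 and -2.25. PR was the lowest layer for both without overlap, at an FC of RPE over PR of 1.60 for Lrp5 (adjusted p = 0.00732) and 1.56 for Ror2 (adjusted p = 0.0136), neither called.

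**Figure D2:**
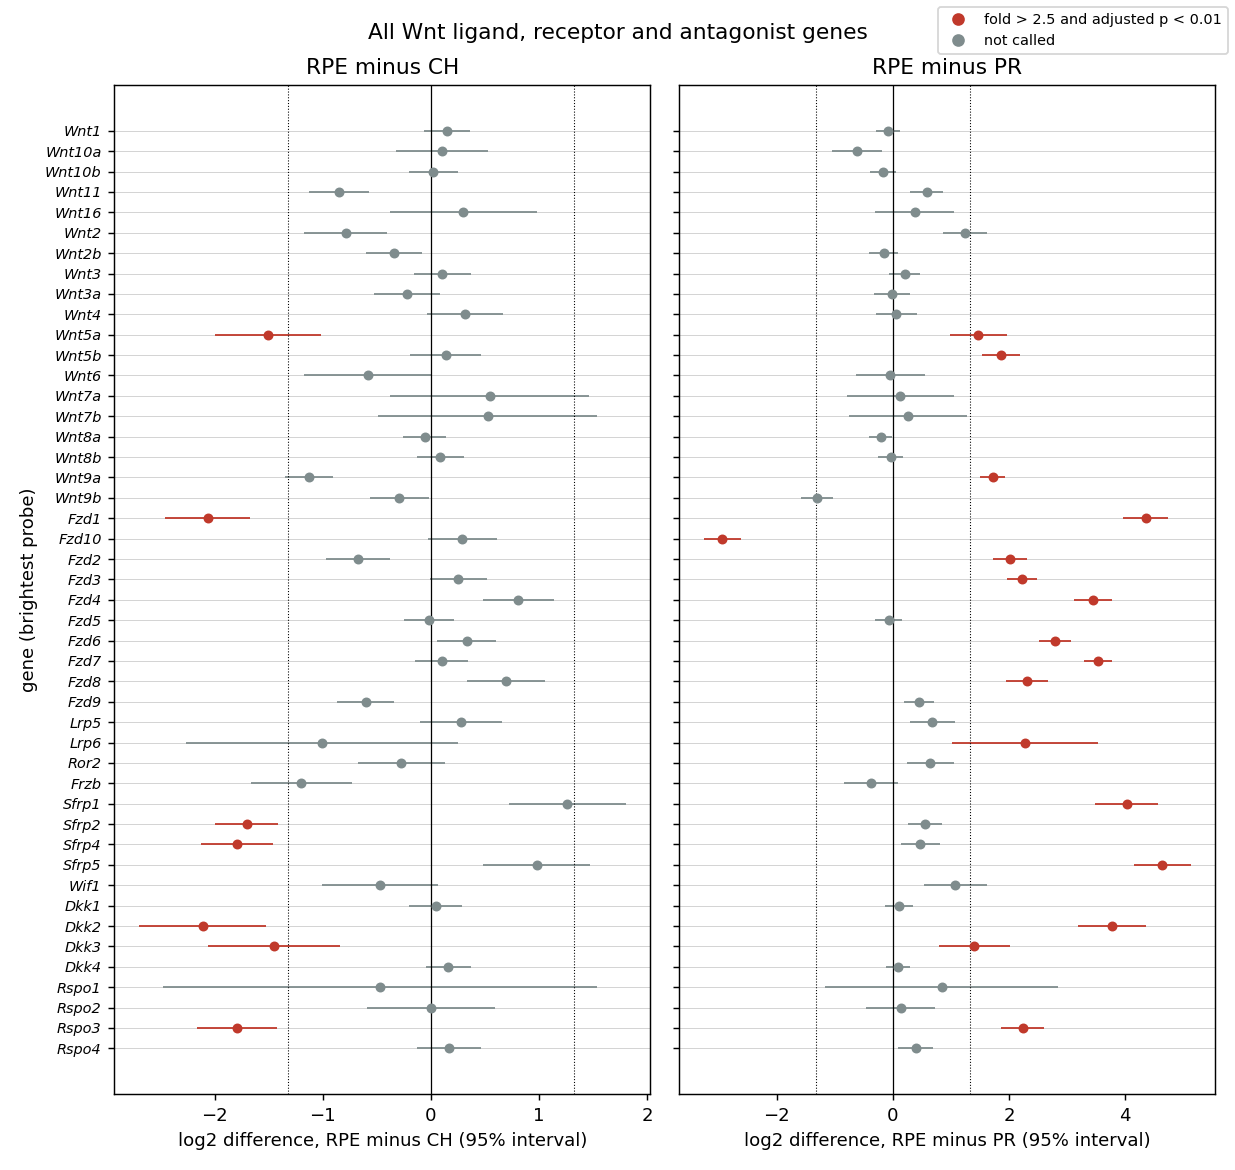
Log2 differences of RPE minus CH (left) and RPE minus PR (right) for all 46 genes at their brightest probe, with 95% intervals and dotted lines at an FC of 2.5. Called genes are red, and 7 lie left of 0 in the first panel and none right, while 16 lie right of 0 and 1 (Fzd10) left in the second.

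The antagonists that bind Wnt proteins fell into 2 patterns, with the highest mean in RPE for Sfrp1 and Sfrp5 and in CH for Sfrp2, Sfrp4, Frzb and Wif1. Sfrp5 (chr19:42272509-42272568 on mm9, minus strand) read 0.68, 0.64 and 1.45 in CH, 1.64, 2.23 and 1.83 in RPE and -2.62, -2.76 and -2.85 in PR. Each RPE array was above each CH array, and PR was far below both. The log2 FC was 4.64 ± 0.22 for RPE over PR (adjusted p = 1.17e-07) and 0.98 ± 0.22 for RPE over CH (adjusted p = 0.0114, not called). Sfrp1 read -1.02, -1.56 and -1.22 in CH, -0.16, -0.27 and 0.42 in RPE and -3.95, -4.48 and -3.67 in PR. It followed the order of Sfrp5, with a log2 FC of 4.03 ± 0.24 for RPE over PR (adjusted p = 5.04e-07). For RPE over CH it reached an FC of 2.40 (adjusted p = 0.00527), the nearest of the 46 genes to a call in this direction, and passed at a log2 FC of 1.38 without CH replicate 1.

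Sfrp2 (chr3:83577864-83577923 on mm9, plus strand) read -0.19, -0.54 and -0.51 in CH, -1.98, -2.26 and -2.11 in RPE and -2.51, -2.83 and -2.67 in PR. Sfrp4 read -0.89, -0.57 and -0.90 in CH, -2.46, -2.65 and -2.64 in RPE and -3.07, -2.79 and -3.31 in PR. For both genes CH stood apart while RPE lay close above PR. The log2 FC of RPE over CH was -1.70 ± 0.13 for Sfrp2 (adjusted p = 9.2e-05) and -1.80 ± 0.15 for Sfrp4 (adjusted p = 0.000119), and that of RPE over PR was 0.56 (adjusted p = 0.0052) and 0.47 (adjusted p = 0.0231), neither called. Frzb, which is Sfrp3, is given here beside its family although it was not called. It read 0.37, 0.34 and -0.13 in CH, -0.89, -1.10 and -1.02 in RPE and -1.05, -0.21 and -0.63 in PR. Only CH stood apart, at an FC of CH over RPE of 2.29 (adjusted p = 0.00318), which passed 2.5 without CH replicate 3 (log2 FC of RPE over CH -1.36) and with median centring. Its adjusted p-value rose above 0.01 without CH replicate 1 (0.0139) or 2 (0.0164), or without any RPE array (0.0108 to 0.0148). The log2 FC of CH over PR was 0.82 (adjusted p = 0.00706), and 0.43 with slide as a block (adjusted p = 0.248). Wif1 read -1.28, -0.53 and -0.87 in CH, -0.85, -1.53 and -1.71 in RPE and -2.5, -2.28 and -2.55 in PR. CH and RPE overlapped, and CH over PR was called at a log2 FC of 1.55 ± 0.24 (adjusted p = 0.000343), a call lost with slide as a block (1.48, adjusted p = 0.0178). Wif1 was well above background on 1 of 3 PR arrays and 2 of 3 RPE arrays.

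Of the 4 Dickkopf genes, Dkk2 and Dkk3 were called. Dkk2 (chr3:131842357-131842416 on mm9, plus strand) read 2.07, 1.80 and 0.88 in CH, -0.52, -0.37 and -0.70 in RPE and -4.08, -4.37 and -4.46 in PR. The order CH, RPE, PR held without overlap, with a log2 FC of -2.11 ± 0.26 for RPE over CH (adjusted p = 0.000682) and 3.77 ± 0.26 for RPE over PR (adjusted p = 1.42e-06). Dkk3, a divergent member of the family, read 0.72, 0.55 and 0.40 in CH, -0.41, -1.37 and -0.90 in RPE and -2.60, -1.74 and -2.54 in PR. It had the same order with a wider spread in RPE and PR. Its log2 FC of RPE over CH was -1.45 ± 0.27 (adjusted p = 0.00474), and that call was lost without CH replicate 1 (-1.37, adjusted p = 0.0193) or 2 (-1.46, 0.0191) or RPE replicate 2 (-1.21, 0.0169) or 3 (-1.45, 0.0179). RPE over PR was 1.40 ± 0.27 (adjusted p = 0.00167), but 1.16 without RPE replicate 1, 1.25 without PR replicate 1, 1.28 without PR replicate 3 and 0.60 with slide as a block (adjusted p = 0.152). CH over PR stayed called in these fits, at 2.85 on all arrays. Dkk1 was at background on every array and Dkk4 was not called.

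**Figure D3:**
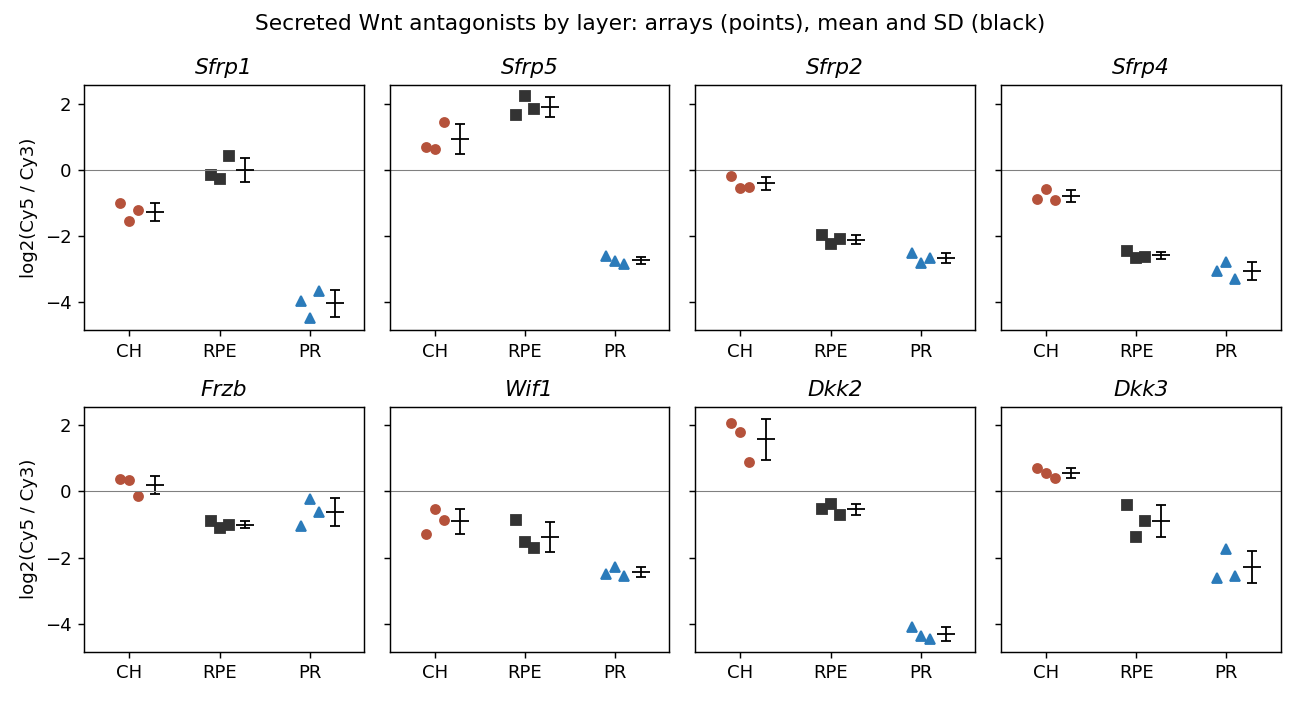
Log2(Cy5/Cy3) of 8 secreted antagonists in CH, RPE and PR, with 1 point per array and the mean and SD in black (n = 3 per layer). Sfrp1 and Sfrp5 have their highest means in RPE, Sfrp2, Sfrp4 and Frzb lie lower in RPE than in CH with RPE and PR close together, and Dkk2 and Dkk3 step down through the 3 layers.

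Rspo3, the R-spondin known for its role in vessels, read 1.62, 1.58 and 1.05 in CH, -0.46, -0.19 and -0.49 in RPE and -2.44, -2.62 and -2.77 in PR, where it was not well above background on any array. The layers did not overlap. The log2 FC of RPE over CH was -1.79 ± 0.17 (adjusted p = 0.000179), and Rspo3 was at least 15.3-fold higher in CH than in PR (adjusted p = 3.18e-08) and at least 4.17-fold higher in RPE than in PR (adjusted p = 2.12e-06). These bounds compare the Cy5 channel alone with the lowest signal well above background, and no dyes were swapped. The adjusted p-values given beside bounds, also for Wnt2 and Ror1, test the log2(Cy5/Cy3) difference and not the bound.

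Rspo1, Wnt7a and Wnt7b were set by a single array, RPE replicate 3, and are given after their values were seen. Rspo1 read 2.52 on that array against -1.27 and -1.22 on the other RPE arrays, 0.64, 0.89 and -0.09 in CH and -0.83, -1.65 and -0.02 in PR. Wnt7a read 1.91 there against 0.15 and 0.22, and Wnt7b 1.48 against -0.28 and -0.55. On that array 68 probes (0.173% of all) lay more than 2 log2 units above both other RPE arrays, and lens genes such as Crygs, Lgsn and Mip are among them. The median of 6 lens genes picked after this was seen (Cryaa, Crygs, Bfsp1, Bfsp2, Mip and Lgsn) was 4.33 on RPE replicate 3, against 0.64 and 0.13 on the other RPE arrays, 1.51, 2.04 and -2.56 in CH and 0.95, -0.01 and 1.93 in PR. The part of lens RNA in the values of the 3 genes was not tested. None was called in any comparison with or without the array. Without it, the log2 FC of RPE over CH moved from -0.47 to -1.73 for Rspo1 (adjusted p = 0.0287), from 0.55 to -0.03 for Wnt7a and from 0.52 to -0.11 for Wnt7b. Leaving the array out also changed whether Dkk3, Wnt2 and Wnt9b passed both thresholds, as given above. For RPE over CH, Frzb and Fzd9, not called either way, then no longer passed the adjusted p-value.

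**Figure D4:**
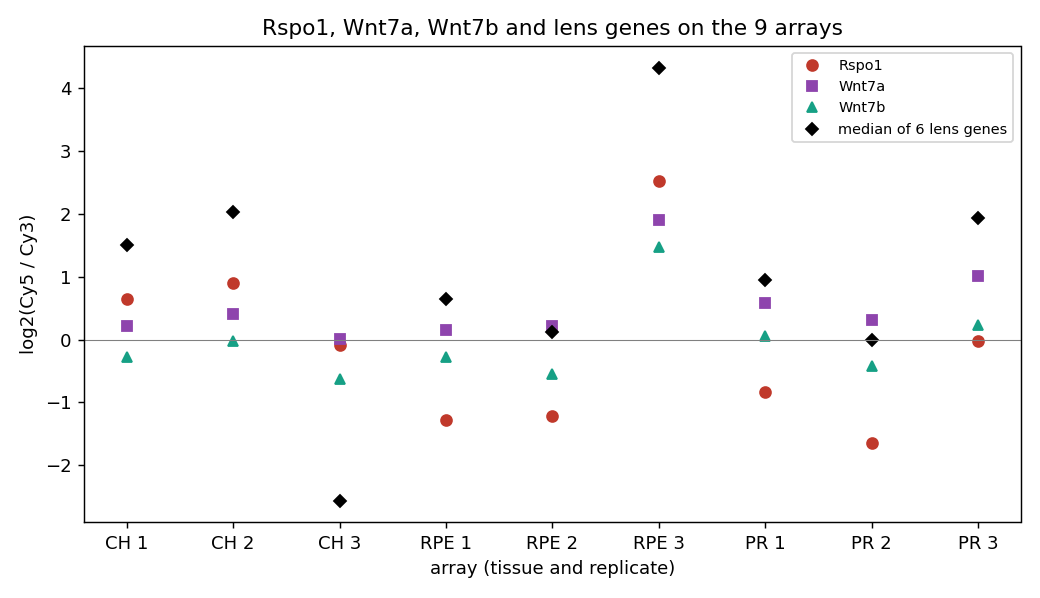
Log2(Cy5/Cy3) of Rspo1, Wnt7a and Wnt7b on each of the 9 arrays, with the median of 6 lens genes (diamonds). On RPE replicate 3 the 3 genes read 2.52, 1.91 and 1.48 and the lens median 4.33, the highest of the 9 arrays for each.

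The labelled layers matched their markers. RPE markers were called higher in RPE than in both other layers for 4 of 5 genes, and rod and cone markers higher in PR for 5 of 5 and 4 of 4. Markers of fibroblasts moved in the same direction as the 7 genes called higher in CH: all 6 (Col1a1, Col1a2, Col3a1, Dcn, Lum and Pdgfra) were higher in CH than in RPE and higher in both than in PR, and their median ran from 1.21 to 1.63 in CH, -1.27 to -0.87 in RPE and -4.61 to -4.07 in PR. Of 5 smooth muscle and pericyte markers 1, and of 4 pigment cell markers 2, were higher in CH than in RPE. Against PR, smooth muscle and pericyte markers were higher in CH for 5 of 5 and in RPE for 4 of 5, pigment cell markers for 4 of 4 in each, and immune cell markers for 4 of 4 in CH and 1 of 4 in RPE. Inner retina markers were higher in PR than in both other layers for 2 of 6 genes (Grm6 and Prkca), the direction of Fzd10. Of 5 endothelial markers 4 were higher in CH and in RPE than in PR, and their medians were 1.24 to 1.84 in CH, 1.39 to 1.63 in RPE and -1.49 to -1.37 in PR. Of 4 Muller glia markers 2 (Glul and Apoe) were higher in CH and in RPE than in PR, and Aqp4 and Slc1a3 were not called. RPE markers were present in the CH samples too, with medians of 0.45 to 1.30 against -3.10 to -2.80 in PR. The part of these cell types in the values of the Wnt genes was not tested.

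The 9 arrays lay on 3 slides, with PR replicates 1 and 3 on one, CH and RPE replicates 1 and 3 on another and the replicates 2 on the third. The 7 genes called between CH and RPE kept their direction on both slides that held these layers, past the FC for all 7 on one and for 6 on the other, the exception being Dkk3. RPE over PR could be compared on one slide, where all 17 called genes kept their direction and 16 passed the FC, again without Dkk3. For CH over PR these were 22 and 21, without Fzd8. The same arrays had made the calls. No called gene overlapped between the layers compared, so its direction on a slide was fixed and only the size was open. On the slide with the replicates 2, each layer had a single array.

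Other genes of the pathway, 52 on a list by function, gave a frame for these values. Between RPE and CH 2 were called in the limma fit, Sost and Nkd2, both higher in CH (3.85% against 1.81% of all genes). None was called higher in RPE (0.217% of all genes), where 9 were at an unadjusted p of 0.05. Nkd2, an inhibitor inside the cell, had a log2 FC of RPE over CH of -1.36 at its brightest probe and -0.99 at the other, which was not called. Between RPE and PR 14 (26.9% against 11.3%) were higher in RPE and 1 (1.92% against 5.66%), the polarity gene Celsr3, in PR. Between CH and PR 20 (38.5% against 13.2%) were higher in CH and 2 (3.85% against 6.84%), Celsr3 and Btrc, in PR. Celsr1, Csnk1e, Nkd1, Tle1 and Tle2 were called only in this last comparison, higher in CH, with log2 FCs of up to 1.84 (Celsr1), and the further probes of Csnk1e, Nkd1 and Tle1 were not called. Wls, named Gpr177 on the array, carries Wnt proteins to the cell surface. It read -0.20, -0.39 and 0.43 in CH, 0.90, 1.01 and 0.89 in RPE and -5.56, -6.13 and -5.56 in PR. PR stood far below both layers, at a log2 FC of RPE over PR of 6.68 (adjusted p = 1.47e-08). The secreted inhibitors of Lrp5 and Lrp6 differed from each other. Sost read 1.84, 2.06 and 1.03 in CH, -0.19, -0.39 and 0.12 in RPE and -0.87, -0.89 and -0.81 in PR, the order of Dkk2. Its log2 FC of RPE over PR was only 0.70 (adjusted p = 0.0319, not called), and it was well above background on 1 of 3 PR arrays. Sostdc1 read 0.37, 0.31 and 0.77 in CH, 0.90, 0.77 and 1.37 in RPE and -3.24, -3.50 and -3.62 in PR, lowest in PR by a log2 FC of 4.47 against RPE (adjusted p = 4.69e-08).

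Tspan12, the partner of Fzd4 in norrin signalling, was lower in PR than in RPE by 3.07 on the log2 scale (adjusted p = 1.33e-07) and differed from CH by -0.26. The nuclear factors Tcf7, Tcf7l1, Tcf7l2 and Lef1 were each called lower in PR than in RPE, with log2 FCs of RPE over PR of 2.11, 2.58, 2.78 and 1.38, as were the co-repressor Tle3 (2.59) and Pygo1 (1.96). A second probe of Tcf7 gave 0.33 for RPE over PR (adjusted p = 0.157). Another probe of Tcf7l2 gave -0.48 for RPE over PR (adjusted p = 0.00628, not called), and Nkd2 and Vangl2 passed in RPE over PR only at a dimmer probe. Ror1, Ptk7 and Vangl1, of the polarity branch, were called higher in RPE than in PR. The log2 FC was 1.52 for Ptk7 and 2.56 for Vangl1, and Ror1, at background on the PR arrays, was at least 2.99-fold higher in RPE (adjusted p = 2.59e-05). Of 9 common transcriptional targets of the pathway (Axin2, Lef1, Tcf7, Nkd1, Notum, Znrf3, Rnf43, Lgr5 and Apcdd1), 2 were called higher in RPE than in PR (Lef1 and Tcf7), against 11.3% of all genes. Called higher in CH than in PR were 3 (Lef1, Tcf7 and Nkd1), against 13.2%. Short of a call, Lgr5 was lower in RPE than in PR (log2 FC -1.15, adjusted p = 0.000588) and Rnf43 higher (0.81, adjusted p = 0.000357). Axin2 read -0.62, -1.02 and -0.62 in CH, -0.76, -1.15 and -0.56 in RPE and -0.90, -1.47 and -0.85 in PR. The layers overlapped, with an adjusted p of 0.865 for RPE over CH and 0.353 for RPE over PR.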

How the data were processed

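Dual-colour Agilent whole mouse genome arrays measured RNA of laser-dissected CH, RPE and PR, 3 samples each, against a common RPE/choroid reference (Cy3, dyes not swapped). The authors deposited the output of Agilent Feature Extraction 9.5.3.1 (per the labels' processing notes), in which mean and background signals are intensity values as scanned and the log ratio is on a log10 scale, as deposited. The authors also deposited a series table of log2 Cy5 values, whose normalization is not given in the sources used here and whose column medians were 9.38 to 9.55. The log10 ratios and the series table served as alternatives only.

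Starting from 44397 spots per array, of which 43020 are not controls, normexp (offset 50) removed background and loess within each array centred log2(Cy5/Cy3), since the paper names limma, the reference and both thresholds but not the normalization. It shows background-corrected Feature Extraction signals as a quality control, and the Feature Extraction log ratio was therefore an alternative. Outlier spots (228 to 586 per array) were dropped, and repeated spots averaged. The model was fitted in limma 3.58.1 (R 4.3.3) with Benjamini-Hochberg adjustment. The number of arrays, 3 per layer, limits the precision. In data simulated for RPE over CH, 189 of 200 changed probes were recovered with 1 false call, and for RPE over PR 191 of 200 with 0. No change was planted between CH and PR. These rates hold for the planted changes and do not measure the power for the Wnt genes, some of which lay near the required FC.

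Genes reported with values by rule are all members called at any probe and the co-receptors, with a second probe of a member where it disagrees. Called pathway genes are described by counts and examples. Members and lists were chosen with earlier results of these data known. Exceptions named after their values were seen are Wnt9b, Frzb, Rspo1, Wnt7a and Wnt7b, with Fzd5, Fzd9, Dkk4 and Wnt16 named without values and Axin2, Lgr5 and Rnf43 as pathway targets. Probe positions are those in the files (mm9), with no annotation of exons used. All 53 probe accessions matched RefSeq genes of the same symbol. Tables and figures were made with Python 3.11.15, pandas 2.3.3 and matplotlib 3.10.9. Alternatives covered background, normalization, log ratio, reference channel, dim and marked spots, replicate number and slide as blocks, arrays fitted, probes of a gene, thresholds and each array left out. The human arrays were not analysed here.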

Additional observations from a re-analysis of the deposited data

How the results depend on the processing

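Over 72 differences of named genes and 20 alternatives, 1402 of 1440 values kept their direction and were called or not called as before, 24 lost the call, 11 gained it and 3 changed sign, none of them called. These were RPE over CH for Wnt5b, -0.15 with median centring and -0.0099 without RPE replicate 3 (-0.0099 to 0.25 with an array left out), and for Fzd7, -0.17 with median centring. Of the counts, higher in RPE than in CH was 1 of the 46 genes (Sfrp1) without CH replicate 1, a range of 0 to 1 with an array left out, and 1 at an FC above 2. Higher in PR than in RPE was 2 (Wnt9b added) with the Feature Extraction log ratio and at an FC above 2, and 1 to 2 with an array left out (2 without RPE replicate 3 or PR replicate 2). Higher in PR than in CH was 2 with that log ratio and at an FC above 2. Higher in CH than in RPE was 9 with median centring (Frzb and Wnt9a added), 5 in the series table (Dkk3 and Wnt5a lost) and 5 to 8 with an array left out. Higher in RPE than in PR was 15 with the Feature Extraction log ratio, where Dkk3 and Lrp6 were lost, and 14 in the series table, where Wnt5a was lost as well, and Wnt2, at background in PR, passed the measured FC in both. Among the 52 other pathway genes, higher in RPE than in CH was 1 at an FC above 2. Higher in CH than in RPE was 5 with median centring, 0 in the series table and 1 to 4 with an array left out, where CH replicates 1 and 2 and RPE replicate 3 gave 1 and CH replicate 3 gave 4. Higher in PR than in RPE was 4 with median centring, 5 with the Feature Extraction log ratio, 2 in the series table, 2 with slide as a block, 4 at an FC above 2 and 1 to 3 with an array left out (3 without RPE replicate 1, 2 without PR replicate 2). Higher in PR than in CH was 6 with that log ratio, 4 in the series table, 1 with slide as a block and 4 at an FC above 2. The cause of these moves was not tested. With replicate number as a block the counts for the 46 genes were 0, 7, 16, 1, 21 and 1, the same genes as without it. The numbers were not taken as pairing the samples. Same-numbered samples deviated together with r between -0.08 and 0.29, with 4 of 9 pairs above 0.1. For differently numbered samples r was between -0.31 and 0.25, with 5 of 18 pairs above 0.1. Some same-numbered samples shared a slide, so these values cannot tell pairing from slide. Genes at background on all arrays of a layer, such as Rspo3 and Wnt2 in PR, have only a bound there, and at 5 genes no layer could be measured.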
